A study of Sus scrofa with 120 samples.

Results

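Pig articular chondrocytes given siRNA against the mechanosensitive channel PIEZO1 or a non-targeting siRNA were sampled 3 h after the onset of Yoda1, a small molecule that opens PIEZO1, and the question here is whether the siRNA altered the transcriptional response to the drug. The comparison is an interaction, the Yoda1 effect in cells given PIEZO1 siRNA minus the Yoda1 effect in cells given non-targeting siRNA, and its libraries were chosen by their labels alone. It uses 16 of the 120 libraries of the series, in 4 groups of 4. A positive log2 value means that Yoda1 raised a gene more, or lowered it less, with the PIEZO1 siRNA.

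All groups were primary chondrocytes from pig femoral cartilage, held in constructs of 2% agarose. The siNTC vehicle and siNTC Yoda1 groups carried the non-targeting siRNA, and the siPIEZO1 vehicle and siPIEZO1 Yoda1 groups carried a mix of 3 siRNAs against PIEZO1, all delivered with a lipid reagent before casting. The vehicle was DMSO and Yoda1 was given at 5 uM according to the series description, while the labels print the same figure in mM. The 8 non-transfected (NT) libraries of the same time, 4 with vehicle and 4 with Yoda1, served to choose Yoda1-responsive genes. Their values do not enter the fold changes of the interaction. The labels call the siRNA groups transduced in the titles and transfected in the protocol. The labels name no animal for any library. The p-values therefore rest on the spread among 4 libraries per group, which may be technical. This spread was estimated over all 36 libraries of the PIEZO1 experiment at 3 h, NT and compressed groups included.

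PIEZO1 forms a trimeric cation channel that opens when the membrane is stretched and lets calcium into the cell. In chondrocytes, calcium that enters through PIEZO1 and TRPV4 is part of how cartilage senses load. A rise in calcium is known to switch on immediate early transcription factors such as the FOS, EGR and NR4A families within the hour, the calcineurin-NFAT pathway, and feedback inhibitors such as RCAN1 and the DUSP phosphatases. A knockdown that removed the channel would be read in such genes as a smaller rise with Yoda1, which is a negative interaction.

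The 3 designed siRNAs are shown because every siPIEZO1 library rests on them. Bases 2 to 8 from the 5′ end are in capitals, and the labels do not say whether the strand they list is the one loaded as guide.
siPIEZO1a: cAGCGAGAucucgcacuccauc
siPIEZO1b: uACGACCUgcugcagcuccug
siPIEZO1c: aCCCGCUGgccaugcaguucuu
They were 22, 21 and 22 bases long with a GC content of 59.1%, 61.9% and 59.1%, and were used at about 222, 278 and 278 nM. The capitalised stretches differ among the 3. The labels say that they were designed for different transcript variants of PIEZO1, and their positions in the gene were not analysed here.

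Library totals were 42667388 to 59395048 counts in the 16 libraries, and 18330 genes were tested. The defining chondrocyte genes COL2A1, ACAN and HAPLN1 averaged 4848, 1726 and 2706 CPM (counts scaled to a common library total), the 9 chondrocyte markers summed to 15290 to 37940 CPM per library, and no library lacked them. The 11 markers of fibroblasts and synovium summed to 368 to 1462 CPM and the 11 of leukocytes to 44.3 to 102.9 CPM. LYZ was at 0 in all 16 libraries and PTPRC, the pan-leukocyte gene, averaged 0.0998 CPM. The leukocyte markers CD14, CD79A and SPI1 averaged more, at 31.6, 26.6 and 8.6 CPM. MATN3 was low for a chondrocyte marker (1.73 CPM), and ERG, of the endothelial list, averaged 97.7 CPM. A pair of libraries stood apart from their groups. Replicate 2 of siNTC Yoda1 had the lowest signal of long genes relative to short ones (a difference of mean log2 levels of -1.26, against -1.05 to -1.01 in the other 3) and 0.31% mitochondrial counts. Replicate 1 of siPIEZO1 vehicle stood at -1.24 against -1.03 to -0.969 in the other 3, and 9.86% of its counts were ribosomal protein genes against 5.8 to 7.88% in the other libraries of the 16. The counts that follow are therefore also given without both libraries, an alternative added after the data were seen.

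PIEZO1 itself (ENSSSCG00000035230, chromosome 6, 914480 to 967113 of Sscrofa11.1) was low and was not clearly lower in vehicle. The 4 siNTC vehicle libraries held 3.71, 5.1, 6.99 and 6.73 CPM and the 4 siPIEZO1 vehicle libraries 4.22, 5.01, 4.68 and 5.18 CPM. The siPIEZO1 values lay inside the siNTC range (log2 difference -0.24, adjusted p = 0.58 edgeR's quasi-likelihood test, Benjamini-Hochberg adjusted over all genes, as throughout). With Yoda1 the siNTC libraries held 5.71, 8.07, 8.1 and 9.28 CPM and the siPIEZO1 libraries 4.12, 5.7, 4.24 and 4.92 CPM. These groups just failed to overlap, and PIEZO1 was lower with its siRNA by a log2 difference of -0.72 (adjusted p = 0.020). The interaction for PIEZO1 was -0.47 ± 0.28 (log2 ± SE, adjusted p = 0.44), with a 95% interval of -1.01 to 0.06. PIEZO1 mRNA was thus lower with its siRNA by the test in Yoda1 and not in vehicle. Its groups are therefore called the libraries labelled siPIEZO1 where a direction rests on the knockdown. The channel genes PIEZO2 and TRPV4 did not pass the test either. PIEZO2, the related channel of sensory neurons, had an interaction of 0.19 ± 0.25 (adjusted p = 0.80), and TRPV4, the other calcium channel of chondrocytes, one of -0.23 ± 0.18 (adjusted p = 0.58).

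Yoda1-responsive genes were taken from the NT libraries, where 62 genes rose (0.338% of those tested) and 13 fell (0.0709%) at an adjusted p under 0.05. The fold changes behind that choice used no library of the interaction. The spread did, since it was estimated over all 36 libraries, so the choice was not fully independent. A fit of the NT libraries alone called 210 genes in place of 75. Of these 62 genes, 23 rose with Yoda1 in the siNTC arm, where 1.47% of all genes tested rose, and 20 rose in the siPIEZO1 arm, where 0.207% rose. The log2 fold change was above 0 for 60 of the 62 in the siNTC arm and for 62 of 62 in the siPIEZO1 arm. Its median was 0.34 in the siNTC arm and 0.51 in the siPIEZO1 arm, against 0.02 and -0.00 over all genes. The rise with Yoda1 was thus present in the libraries labelled siPIEZO1. The counts depended on single libraries. In the siNTC arm 8 rose without replicate 2 of siNTC Yoda1 and 13 without replicate 2 of siNTC vehicle. In the siPIEZO1 arm 10 to 13 rose without replicate 2, 3 or 4 of siPIEZO1 Yoda1 or replicate 1, 2 or 4 of siPIEZO1 vehicle. Without both libraries that stood apart, 15 and 17 rose. A fit of the libraries of each contrast alone, which estimates the spread from those libraries only, left 1 and 6 called.

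The interaction over these 62 genes was not shifted towards a smaller rise with the PIEZO1 siRNA. PTGS2 alone was called, and it was higher, where 0.938% of all genes were called. A further 7 had an unadjusted p under 0.05 and all were positive. With PTGS2 these were 8 of the 62, while 2684 of all 18330 genes tested had such a p, a similar share. The number is therefore not read as a trait of the 62. The estimate was positive for 44 genes and negative for 18, against 8737 positive and 9593 negative over all genes. Its median was 0.14 against -0.03 over all genes, with an interquartile range of -0.01 to 0.30. The median SE of the 62 was 0.19 against 0.35 over all genes. Without both libraries that stood apart the median was 0.11, and PTGS2 was again the 1 gene called. Leaving out replicate 4 of siNTC Yoda1, in which the 62 genes were lowest of that group (mean log2 level of 5.57 against 5.84, 6.02 and 5.94 in the others and 5.44 to 5.50 in siNTC vehicle), brought the median to 0.03. Leaving out replicate 1 of siPIEZO1 vehicle brought it to 0.07, and over the other single libraries left out it ran from 0.11 to 0.19. With NT libraries in place of siNTC the median was -0.15 and no gene was called, but there the NT values had also chosen the genes.

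**Figure D1:**
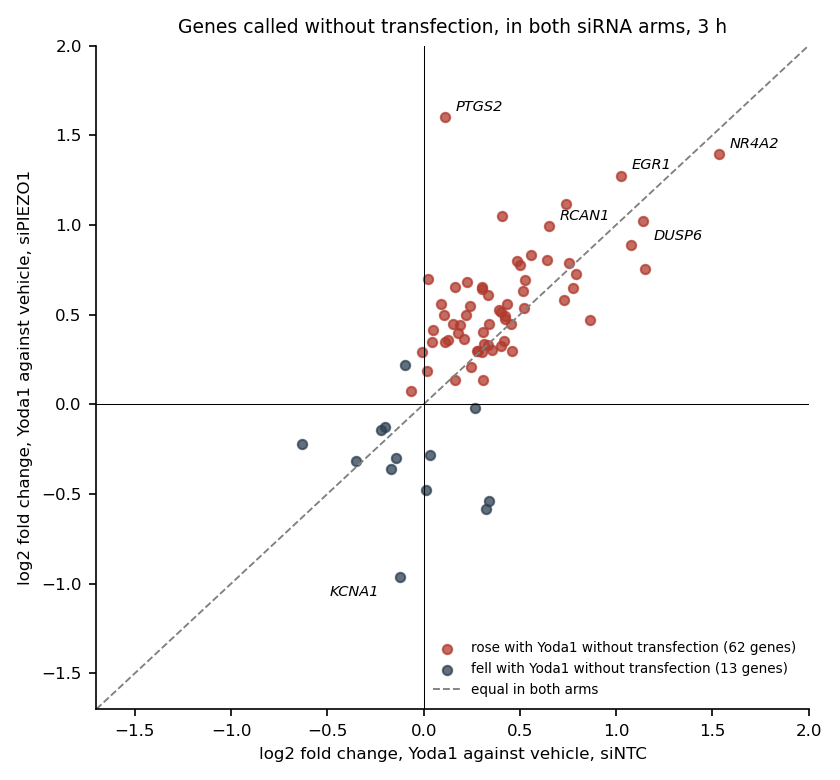
Log2 fold change of Yoda1 against vehicle in the siNTC arm (x axis) and in the siPIEZO1 arm (y axis) for the 62 genes that rose and the 13 that fell with Yoda1 in NT libraries, 1 point per gene. Points on the dashed line changed equally in both arms. Of the 62 genes, 44 lie above the line, PTGS2 far above it, and NR4A2, EGR1 and DUSP6 lie near it.

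NR4A2, an orphan nuclear receptor and immediate early gene, had the largest rise of the 62 without transfection among genes averaging at least 1 CPM. It held 30.5, 32, 37.2 and 30.4 CPM in siNTC vehicle and 92.3, 131, 106 and 47.3 CPM in siNTC Yoda1. It held 36.2, 43.3, 45.9 and 47.1 CPM in siPIEZO1 vehicle and 95.3, 122, 112 and 123 CPM in siPIEZO1 Yoda1. Vehicle and Yoda1 libraries did not overlap in either arm, and replicate 4 of siNTC Yoda1 was the lowest of the treated libraries. The log2 rise was 1.53 ± 0.20 (adjusted p = 3.3e-05) with siNTC and 1.39 ± 0.20 (adjusted p = 0.00024) with siPIEZO1. The interaction was -0.14 ± 0.28 (adjusted p = 0.88). Its 95% interval, -0.69 to 0.41, held both a smaller and a larger rise with siPIEZO1. It did not reach -1.53, the value for no rise with siPIEZO1 if the siNTC estimate is taken as exact. That estimate has its own SE and comes from libraries that also enter the interaction.

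EGR1, a zinc finger transcription factor of the immediate early class, rose in both arms. Its 4 siNTC libraries went from 60.1, 71, 75.3 and 69.4 CPM in vehicle to 164, 159, 170 and 68.8 CPM in Yoda1. Its siPIEZO1 libraries went from 46.6, 61.3, 42.9 and 47.5 CPM to 113, 114, 128 and 124 CPM. Replicate 4 of siNTC Yoda1 stood within the vehicle range, while all 4 siPIEZO1 Yoda1 libraries lay above all 4 of their vehicle libraries. The interaction was 0.25 ± 0.26 (adjusted p = 0.74), with a 95% interval of -0.27 to 0.77.

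DUSP6, a phosphatase that switches off ERK, rose from 5.04 to 7.71 CPM in siNTC vehicle to 9.06 to 19.2 CPM in siNTC Yoda1. In the siPIEZO1 groups it rose from 9.92 to 12.8 CPM to 19.1 to 25.1 CPM. Neither arm overlapped, and the siPIEZO1 arm started higher (log2 difference in vehicle 0.80, adjusted p = 0.0063). The log2 rises were 1.14 ± 0.19 and 1.02 ± 0.18, and the interaction was -0.12 ± 0.26 (adjusted p = 0.89; 95% interval -0.63 to 0.38).

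RCAN1, a calcineurin inhibitor that is itself an NFAT target, had a smaller SE of the interaction than NR4A2, EGR1 and DUSP6. It held 258, 276, 251 and 235 CPM in siNTC vehicle and 447, 423, 476 and 258 CPM in siNTC Yoda1. It held 272, 244, 267 and 228 CPM in siPIEZO1 vehicle and 478, 519, 513 and 506 CPM in siPIEZO1 Yoda1. Replicate 4 of siNTC Yoda1 stayed at the vehicle level and the 4 treated siPIEZO1 libraries were all higher than the 4 treated siNTC libraries. The interaction was 0.34 ± 0.16 (adjusted p = 0.29), with a 95% interval of 0.04 to 0.65. FOS, the AP-1 subunit, was named after its values were seen. It rose by 0.82 ± 0.13 with siNTC and by 0.67 ± 0.13 with siPIEZO1, with an interaction of -0.15 ± 0.18 (adjusted p = 0.78).

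**Figure D2:**
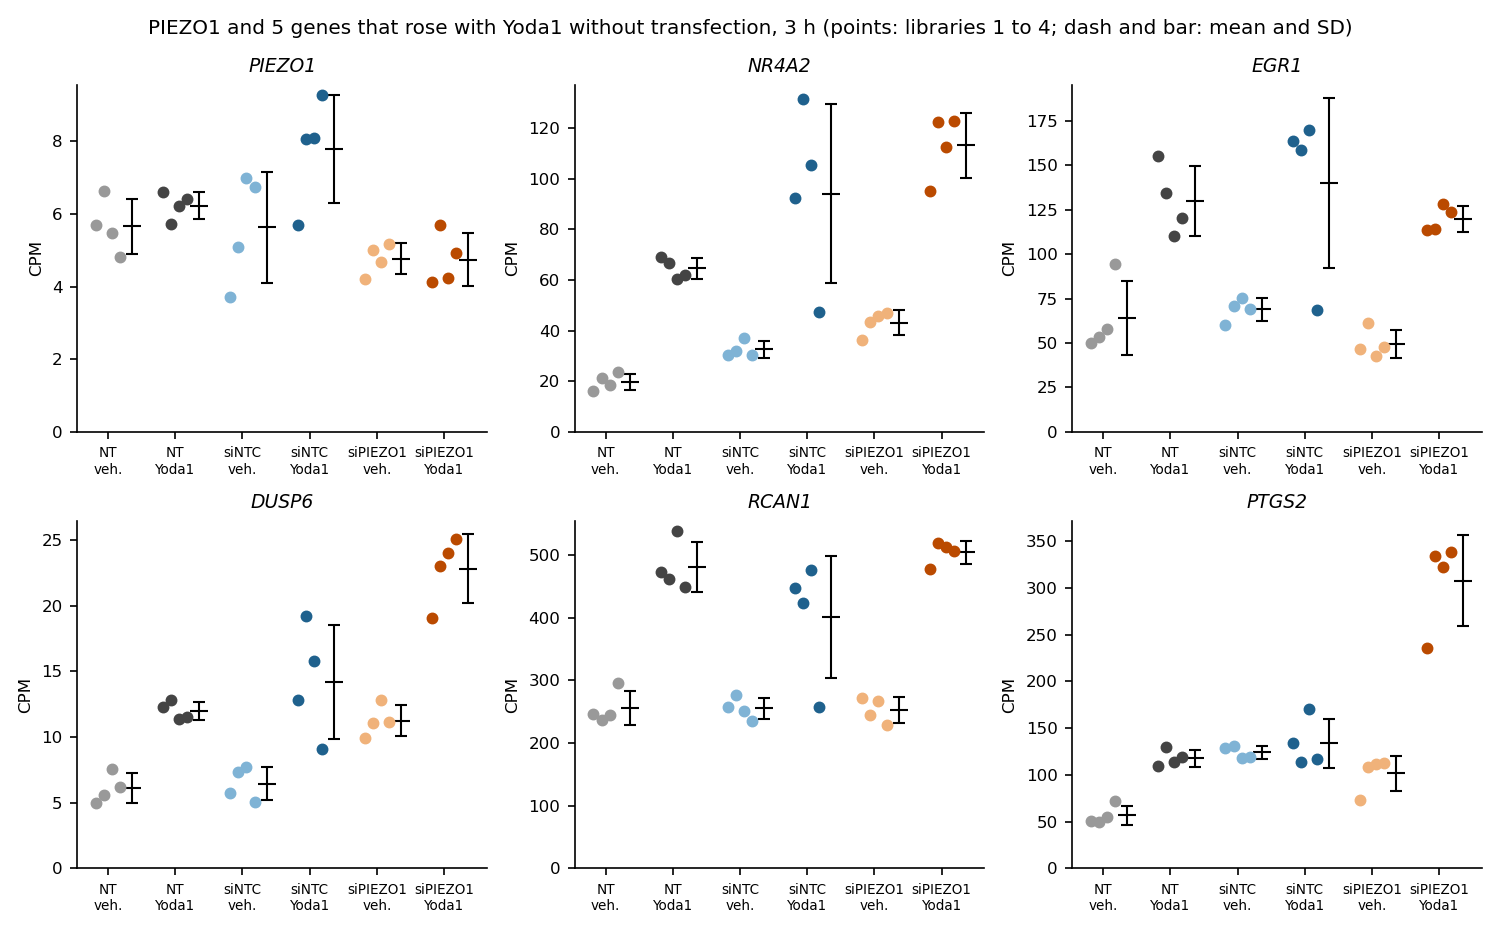
Level in CPM (y axis, linear, from 0) of PIEZO1 and of 5 genes that rose with Yoda1 in NT libraries, in the 6 groups at 3 h. Points are libraries 1 to 4 from left to right, and the dash and bar give the mean and SD of 4. NR4A2, EGR1, DUSP6 and RCAN1 rise in all 3 pairs of groups, replicate 4 of siNTC Yoda1 is the lowest of its group in each, and PTGS2 does not rise with siNTC.

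Other genes of the set had no called interaction either. INHBA, the activin A subunit gene, rose by 1.27 ± 0.18 without transfection and by 0.78 ± 0.17 with siPIEZO1 (adjusted p = 0.038). With siNTC its estimate was 0.50 ± 0.17 (adjusted p = 0.078), and its interaction was 0.27 ± 0.24. ADAMTS1, a secreted metalloproteinase, rose by 0.64 ± 0.18 with siNTC and 0.81 ± 0.18 with siPIEZO1, and its interaction was 0.17 ± 0.25. RGS16, a regulator of G protein signalling, had the lowest estimate of the rising genes described here, -0.40 ± 0.31 (adjusted p = 0.61), from a rise of 1.15 ± 0.22 with siNTC and an estimate of 0.75 ± 0.22 with siPIEZO1 that missed the threshold (adjusted p = 0.17). TSC22D1, a leucine zipper protein, had estimates of 0.22 ± 0.10 with siNTC (adjusted p = 0.21) and 0.50 ± 0.10 with siPIEZO1 (adjusted p = 0.025).

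PTGS2 (ENSSSCG00000015579, chromosome 9, 127850164 to 127858866) encodes cyclooxygenase-2, the inducible enzyme of prostaglandin synthesis. Its siNTC vehicle libraries held 129, 131, 118 and 119 CPM and its siNTC Yoda1 libraries 135, 114, 170 and 117 CPM. Its siPIEZO1 vehicle libraries held 73.1, 109, 112 and 113 CPM and its siPIEZO1 Yoda1 libraries 236, 334, 323 and 338 CPM. The siNTC groups overlapped, whereas every siPIEZO1 Yoda1 library was above every other library of the 16. Replicate 1 was the lowest of both siPIEZO1 groups. Without transfection PTGS2 went from 49.1 to 71.9 CPM in vehicle to 109 to 130 CPM in Yoda1, so the siNTC vehicle libraries already stood at the level that Yoda1 gave in NT.

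The Yoda1 effect on PTGS2 was 0.11 ± 0.18 with siNTC (adjusted p = 0.79), 1.60 ± 0.18 with siPIEZO1 (adjusted p = 1.7e-06) and 1.06 ± 0.18 in NT (adjusted p = 0.0019). The interaction was 1.49 ± 0.25 (adjusted p = 0.0032, 95% interval 0.99 to 1.99). It remained called with each of the 16 libraries left out in turn (1.36 to 1.63) and without both libraries that stood apart (1.29, adjusted p = 0.011). With NT libraries in place of siNTC it was 0.54 ± 0.25 and was not called. PTGS2 was the 1 called gene among the 28 tested of a list of inflammatory genes. LIF and IL11, cytokines of the same family, also rose with Yoda1 in the siPIEZO1 arm (1.02 ± 0.22 and 1.10 ± 0.25, adjusted p = 0.032 and 0.042) and did not pass the test in the siNTC arm (0.67 ± 0.22 and 0.28 ± 0.25). Their interactions, 0.35 ± 0.31 and 0.82 ± 0.35, were not called.

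The 13 genes that fell with Yoda1 in NT libraries gave less. Of them 1 fell in the siNTC arm (3.93% of all genes) and 2 in the siPIEZO1 arm (0.0546%), with medians of -0.12 and -0.30. The genes that fell were PBK, a mitotic kinase (-0.63, adjusted p = 0.037), with siNTC, and KCNA1, a voltage-gated potassium channel (-0.96, adjusted p = 0.023), and ID3, a BMP-induced inhibitor of helix-loop-helix factors (-0.48, adjusted p = 0.042), with siPIEZO1. ID3 held 383, 422, 391 and 405 CPM in siNTC vehicle, 355, 420, 379 and 461 CPM in siNTC Yoda1, 508, 360, 398 and 390 CPM in siPIEZO1 vehicle, and 295, 288, 303 and 303 CPM in siPIEZO1 Yoda1. The treated siPIEZO1 libraries were below all others. The interactions of ID3 (-0.49 ± 0.15, adjusted p = 0.11) and KCNA1 (-0.84 ± 0.28, adjusted p = 0.13) were not called. The interaction over the 13 had a median of -0.19, and the 1 gene called lower, ENSSSCG00000032599, which has no symbol here and was named after its value was seen, was not called without both libraries that stood apart.

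Across all genes, 172 were called in the interaction, 153 higher (0.835% of genes tested) and 19 lower (0.104%). The size was at least 2-fold for 40 of the higher and 4 of the lower. Without both libraries that stood apart, 123 were called, 117 higher and 6 lower, and 77 of the 172 were among them. A fit of the 16 libraries alone, which estimates the spread from these groups only, called 3. The same kind of fit raised the calls for Yoda1 in NT from 75 to 210. Why the interaction count fell was not tested. The count was sensitive to single libraries. It fell to 37 without replicate 4 of siPIEZO1 Yoda1, 38, 50, 53 and 86 without replicates 4, 1, 2 and 3 of siNTC vehicle, 52 and 57 without replicates 2 and 3 of siPIEZO1 Yoda1, 68 without replicate 4 of siPIEZO1 vehicle and 86 without replicate 2 of siNTC Yoda1. It rose to 297 without replicate 4 of siNTC Yoda1. All 172 kept their direction with each of the 16 libraries left out. They were chosen in these libraries for estimates large relative to their SE, so the kept direction says little about stability.

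**Figure D3:**
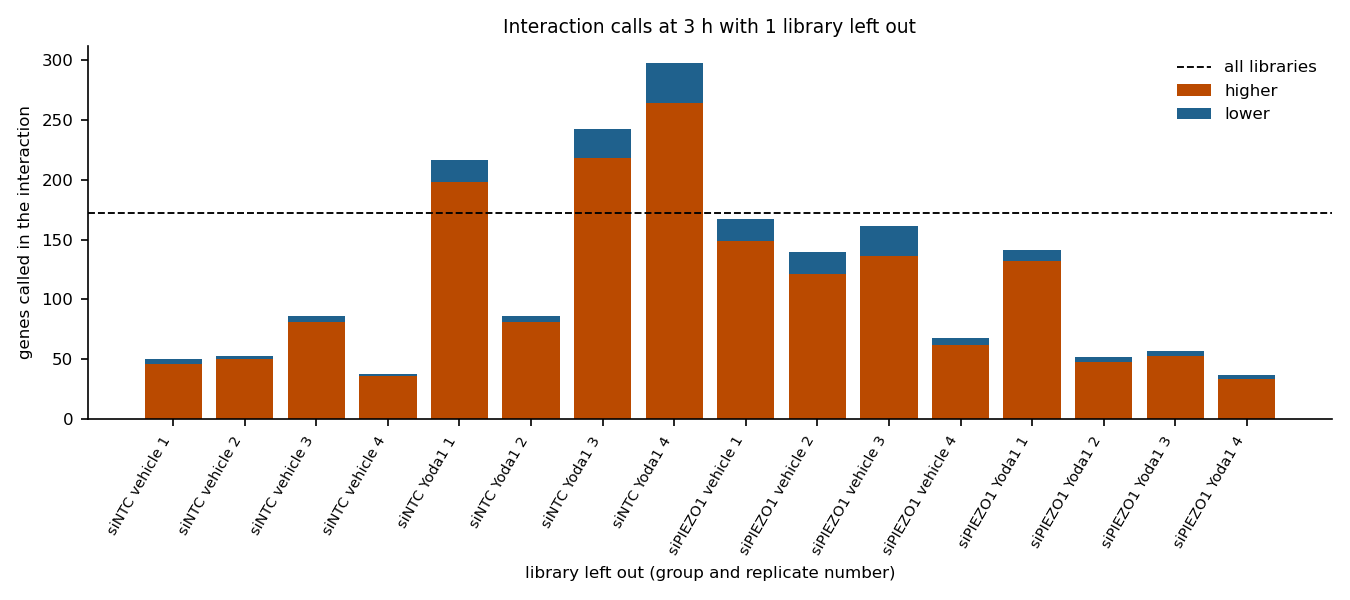
Number of genes called in the interaction (y axis, from 0) with each of the 16 libraries left out in turn (x axis), split into higher and lower. The dashed line marks the 172 calls with all libraries, and the bars run from 37 to 297.

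The 153 genes called higher had the larger median change with Yoda1 in the siNTC arm. Their median log2 change with Yoda1 was -0.58 in the siNTC arm, 0.22 in the siPIEZO1 arm and 0.02 in NT. The arms share their libraries with the interaction. Without both libraries that stood apart the medians were -0.43 in the siNTC arm and 0.19 in the siPIEZO1 arm. Vehicle and Yoda1 libraries did not overlap for 127 of the 153 in the siNTC arm and for 45 in the siPIEZO1 arm. Over all 18330 genes tested the groups did not overlap for 12.1% in the siNTC arm and 5.62% in the siPIEZO1 arm, and 5.4% and 0.262% were called. The 153 were chosen on these same libraries, so nothing is read from their counts or from which arm changed more. PTGS2, which rose in the siPIEZO1 arm and not in the siNTC arm, had another pattern than the median of the 153. Of the 153, 151 code for protein. No theme was tested for them.

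AEBP2 (ENSSSCG00000000587, chromosome 5, 53617362 to 53691487), an accessory subunit of Polycomb repressive complex 2, shows the pattern. It held 47.9, 55.5, 49.5 and 60.4 CPM in siNTC vehicle and 23.6, 10.7, 24.8 and 28.7 CPM in siNTC Yoda1. It held 30.5, 34.7, 30.9 and 28.3 CPM in siPIEZO1 vehicle and 32.9, 37.8, 43.1 and 36.9 CPM in siPIEZO1 Yoda1. The siNTC vehicle libraries were the highest of the 16 and the siNTC Yoda1 libraries, replicate 2 above all, among the lowest. The interaction was 1.56 ± 0.27 (adjusted p = 0.0032), from -1.28 ± 0.19 with siNTC and 0.28 ± 0.19 with siPIEZO1. NT libraries held 37.7 to 51.3 CPM in vehicle and 34.0 to 60.8 CPM in Yoda1 and overlapped.

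CPEB2, which binds polyadenylation elements in mRNA and controls translation, held 9.56, 9.04, 11.14 and 11.2 CPM in siNTC vehicle and 4.2, 2.99, 5.35 and 4.78 CPM in siNTC Yoda1. In siPIEZO1 libraries it held 5.76, 5.5, 5.56 and 6.02 CPM in vehicle and 6.3, 5.63, 7.48 and 7.38 CPM in Yoda1. The siNTC groups did not overlap and the siPIEZO1 groups did. The interaction was 1.47 ± 0.25 (adjusted p = 0.0032). DR1, a repressor of TATA-binding protein, fell from 18.3 to 21.4 CPM to 8.14 to 10.9 CPM in the siNTC arm and stood at 12.2 to 13.5 and 9.98 to 24.5 CPM in the siPIEZO1 arm (interaction 1.33 ± 0.24, adjusted p = 0.0060). XPOT, the exportin for tRNA, fell from 22.4 to 27 CPM to 6.61 to 11.3 CPM with siNTC and stood at 11.08 to 16.6 and 9.98 to 13.2 CPM with siPIEZO1 (1.28 ± 0.25, adjusted p = 0.017). Both show non-overlapping siNTC groups and overlapping siPIEZO1 groups.

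NOG, the secreted BMP antagonist noggin, had the largest estimate of the genes averaging at least 1 CPM. It held 11.11, 16, 14.9 and 14.7 CPM in siNTC vehicle, 5.47, 3.69, 7.19 and 10.7 CPM in siNTC Yoda1, 2.44, 7.63, 8.67 and 5.98 CPM in siPIEZO1 vehicle and 7.83, 9.85, 9.82 and 10.7 CPM in siPIEZO1 Yoda1. The siNTC groups did not overlap and the siPIEZO1 groups did. Its interaction of 1.70 ± 0.39 (adjusted p = 0.032) was called with 8 of the 16 libraries left out and missed the threshold without both libraries that stood apart (1.23, adjusted p = 0.071). In NT libraries NOG had an estimate of 0.73 ± 0.28 (adjusted p = 0.26), so that with NT as control the estimate turned to -0.10. APOLD1, an endothelial early response gene at 1.43 to 5.00 CPM here, likewise went from 1.33 ± 0.34 (adjusted p = 0.047) to -0.11 with NT as control.

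The other named genes were N4BP2 (1.36 ± 0.29), CARNMT1, a carnosine methyltransferase (1.31 ± 0.32), and ZNF367, a zinc finger protein (1.20 ± 0.30), with adjusted p from 0.021 to 0.044. Of the genes named as highest, AEBP2, PTGS2, CPEB2, N4BP2, DR1 and XPOT stayed called with each of the 16 libraries left out in turn. ZNF367 stayed called with 6 of the 16, CARNMT1 with 8 and APOLD1 with 3. ZNF367 held 14.9 CPM in replicate 2 of siNTC Yoda1 against 51.4 to 53 CPM in the other 3.

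**Figure D4:**
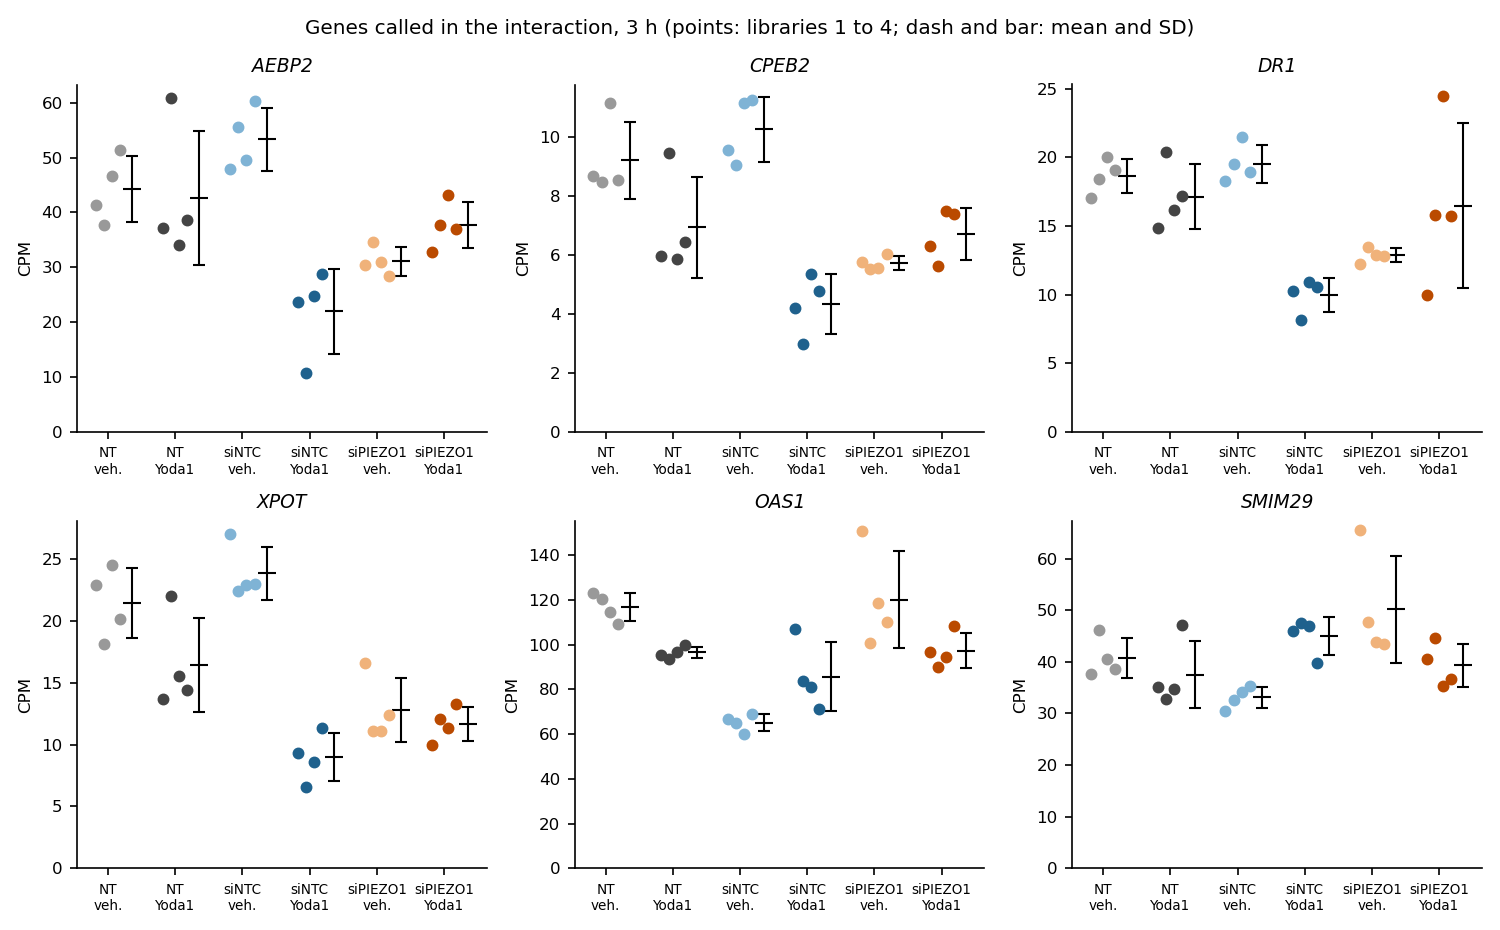
Level in CPM (y axis, linear, from 0) of 4 genes called higher (AEBP2, CPEB2, DR1, XPOT) and 2 called lower (OAS1, SMIM29), in the 6 groups at 3 h. Points are libraries 1 to 4 from left to right, and the dash and bar give the mean and SD of 4. The 4 higher genes drop from siNTC vehicle to siNTC Yoda1, and their siPIEZO1 vehicle and siPIEZO1 Yoda1 libraries lie closer together, apart from 1 high DR1 value of 24.5 CPM.

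The level of the 153 genes together is given here beside a measure of long against short genes. Their mean log2(CPM + 1) was 5.87 to 5.93 in siNTC vehicle, 4.83 to 5.49 in siNTC Yoda1, 5.38 to 5.58 in siPIEZO1 vehicle and 5.65 to 5.78 in siPIEZO1 Yoda1. NT libraries spanned 5.56 to 5.87 in vehicle and 5.65 to 5.93 in Yoda1, so siNTC vehicle stood at the top of the range and siNTC Yoda1 below NT. Replicate 2 of siNTC Yoda1 was the lowest of its group for 145 of the 153, and replicate 1 of siPIEZO1 vehicle the lowest of its group for 88. How often this held over all genes was not counted, so these counts are not read as a trait of the 153. The signal of long relative to short genes followed the same order of groups, -0.973 to -0.849 in siNTC vehicle, -1.26 to -1.01 in siNTC Yoda1, -1.24 to -0.969 in siPIEZO1 vehicle and -0.999 to -0.895 in siPIEZO1 Yoda1. The choice of the 153 in these same libraries partly sets the order of their levels, so nothing is read from the match. The 153 genes were long, with a median gene span of 57.3 kb against 28.4 kb over all genes tested that had a position. The part of this measure in the interaction was not tested. Without both libraries that stood apart the median interaction of the 153 fell from 0.82 to 0.64, all 153 kept their direction and 72 were called.

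**Figure D5:**
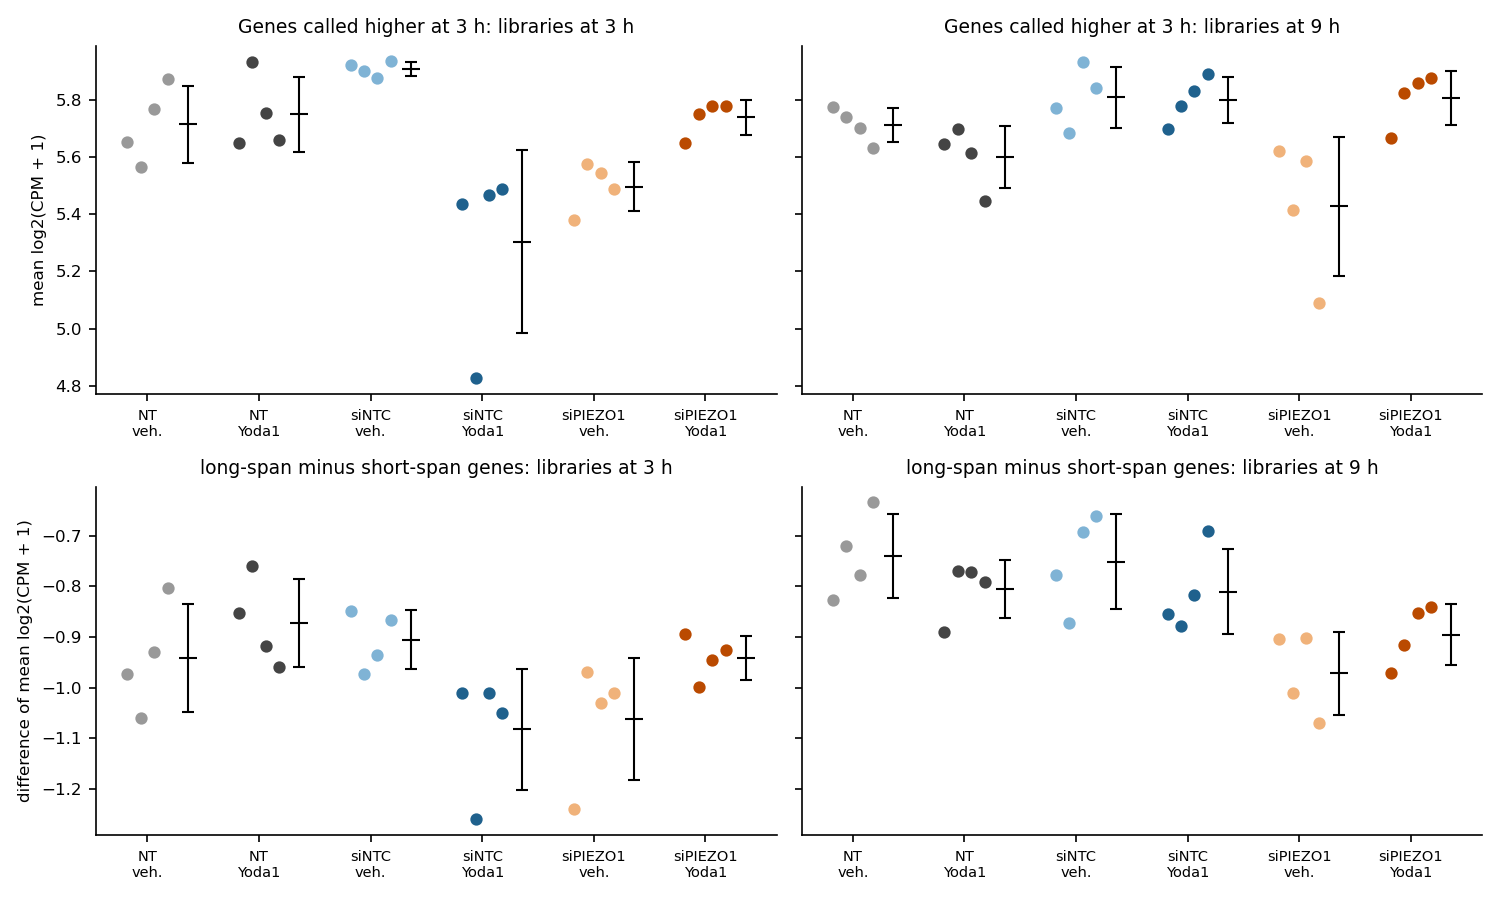
Mean log2(CPM + 1) of the 153 genes called higher at 3 h (top) and the difference of mean log2(CPM + 1) between genes of long and short span (bottom), in libraries of 3 h (left) and 9 h (right). Points are libraries 1 to 4 from left to right, and the dash and bar give the mean and SD of 4. Both measures are low in siNTC Yoda1 and siPIEZO1 vehicle at 3 h, and in siPIEZO1 vehicle at 9 h.

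The 19 genes called lower had a median interaction of -0.82, from medians of 0.37 with siNTC, -0.50 with siPIEZO1 and -0.13 in NT. Of these, 15 code for protein, and 5 were called without both libraries that stood apart. SMIM29, a small membrane protein, held 30.6, 32.6, 34.1 and 35.2 CPM in siNTC vehicle, 45.9, 47.5, 46.9 and 39.7 CPM in siNTC Yoda1, 65.5, 47.7, 43.8 and 43.5 CPM in siPIEZO1 vehicle, and 40.6, 44.7, 35.4 and 36.6 CPM in siPIEZO1 Yoda1. The siNTC groups did not overlap and the siPIEZO1 groups did. Its interaction was -0.79 ± 0.16 (adjusted p = 0.017), and it was called with 15 of the 16 libraries left out. PARP12, an ADP-ribosyltransferase, had an interaction of -0.75 ± 0.19 (adjusted p = 0.041), which missed the threshold without both libraries that stood apart (-0.68, adjusted p = 0.10).

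Of the genes called lower, OAS1 and ISG15 are members of the list of interferon-stimulated genes used here, which does not hold every such gene. OAS1, a sensor of double-stranded RNA, held 66.6, 65.1, 60.1 and 68.9 CPM in siNTC vehicle and 107, 83.6, 81 and 71.2 CPM in siNTC Yoda1. It held 151, 100.9, 118 and 110 CPM in siPIEZO1 vehicle and 96.6, 89.9, 94.5 and 108 CPM in siPIEZO1 Yoda1. It was lowest in siNTC vehicle, and the siPIEZO1 groups overlapped (interaction -0.70 ± 0.14, adjusted p = 0.017). ISG15, a ubiquitin-like modifier, held 899 to 955 CPM in siNTC vehicle, 972 to 1360 CPM in siNTC Yoda1, 1328 to 2149 CPM in siPIEZO1 vehicle and 1128 to 1185 CPM in siPIEZO1 Yoda1 (interaction -0.68 ± 0.16, adjusted p = 0.038). The highest value, 2149 CPM, was again replicate 1 of siPIEZO1 vehicle, and without both libraries that stood apart ISG15 missed the threshold (-0.48, adjusted p = 0.083) while OAS1 passed it (-0.58, adjusted p = 0.028).

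The interferon list as a whole had 29 genes tested, of which OAS1 and ISG15 were called lower (0.104% of all genes) and none higher, with a median of -0.20 against -0.03 over all genes. The siRNA difference in vehicle was the larger change for these genes, since 13 of the 29 rose with siPIEZO1 against siNTC in vehicle (2.54% of all genes rose) and 7 in Yoda1 (3.31% rose and 2.41% fell).

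Other genes called lower were at low levels or near the threshold. LAPTM5, a lysosomal membrane protein of leukocytes, held 0.813 to 2.39 CPM in siNTC vehicle, 1.99 to 4.44 CPM in siNTC Yoda1, 2.63 to 3.38 CPM in siPIEZO1 vehicle and 0.889 to 2.21 CPM in siPIEZO1 Yoda1. Its interaction was -1.55 ± 0.39 (adjusted p = 0.044). The siNTC groups overlapped and the siPIEZO1 groups did not. It was called with 3 of the 16 libraries left out. The leukocyte markers summed to 44.3 to 70.7, 66.6 to 102.9, 49.9 to 79.4 and 63.5 to 77.6 CPM in the same 4 groups, mostly CD14 and CD79A, and none of the 8 tested was called. Whether fewer cells of a type or less RNA per cell lies behind a level cannot be told apart in bulk libraries. FBLN5, an elastic fibre protein (-1.06 ± 0.27), ZBTB7B, a transcription factor (-0.96 ± 0.24), NCK2, an adaptor of tyrosine kinases (-0.91 ± 0.23), RENBP, an epimerase of amino sugars (-0.89 ± 0.21), NUDT16, a nucleotide hydrolase (-0.83 ± 0.20), and LGALS1, the lectin galectin-1 (-0.71 ± 0.17), had adjusted p from 0.031 to 0.047. Of these, LGALS1 fell with Yoda1 in the siPIEZO1 arm alone by the test, from 63.1 to 87.5 CPM to 45.8 to 52.1 CPM (-0.59, adjusted p = 0.023), against 0.12 (adjusted p = 0.61) with siNTC.

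Over 22 lists of pathway genes, 503 genes were tested, 8 were called higher and 2 lower, which is 1.99% against 0.938% of all genes, with a median of -0.03 against -0.03. In 14 of the lists no gene was called. The lists were written with earlier results of these data known, so the counts describe them and support nothing further.

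The immediate early list held 30 tested genes and none was called, with a median interaction of 0.03. In the siNTC arm 10 of the 30 rose with Yoda1, where 1.47% of all genes rose (FOS, FOSB, FOSL1, EGR1, EGR2, NR4A1, NR4A2, IER3, MYC and ZFP36). In the siPIEZO1 arm 5 rose (FOS, EGR1, EGR2, NR4A2 and NR4A3) against 0.207% of all genes, and in NT 3 rose (EGR1, NR4A2 and KLF4) against 0.338%. The list medians of the arms were 0.51 and 0.43. EGR2 rose by 1.46 ± 0.30 with siNTC and 1.91 ± 0.30 with siPIEZO1, and its interaction was 0.45 ± 0.41. FOSL1, an AP-1 subunit, rose by 0.84 ± 0.15 with siNTC and had an estimate of 0.43 ± 0.15 with siPIEZO1 (adjusted p = 0.22), and its interaction of -0.41 ± 0.21 was not called (adjusted p = 0.36). A gene that passed the test in 1 arm only is thus not shown to differ between arms.

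The 21 tested ERK feedback genes, which are switched on by ERK and dampen it, gave a median interaction of -0.04. With siNTC 9 rose and 1 fell, against 1.47% and 3.93% of all genes. With siPIEZO1 4 rose (DUSP2, DUSP4, DUSP5 and DUSP6), against 0.207%. The gene called in the interaction, SPRED1, an inhibitor of Ras, is the one that fell with siNTC. It held 56.3 to 65.3 CPM in siNTC vehicle and 45.9, 16.3, 43.7 and 44.4 CPM in siNTC Yoda1, with replicate 2 far below the others, and stood at 47.9 to 60.5 and 58.2 to 67.4 CPM in the siPIEZO1 groups (interaction 1.02 ± 0.25, adjusted p = 0.042).

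Of 29 tested genes of the calcineurin, NFAT and CREB list, PPP3CA, the catalytic subunit of calcineurin, was called. It held 395, 455, 428 and 438 CPM in siNTC vehicle, 312, 181, 314 and 301 CPM in siNTC Yoda1, 299, 369, 353 and 333 CPM in siPIEZO1 vehicle and 352, 392, 397 and 382 CPM in siPIEZO1 Yoda1. The siNTC groups did not overlap, replicate 2 of siNTC Yoda1 was far the lowest, and the siPIEZO1 groups overlapped (interaction 0.80 ± 0.17, adjusted p = 0.021). The list's median was 0.06. Of 22 tested mechanosensitive channel genes, GJA1, the gap junction protein connexin 43, was called (0.87 ± 0.21, adjusted p = 0.032), falling from 171 to 216 CPM to 89.0 to 179 CPM with siNTC and standing at 93.6 to 116 and 109 to 139 CPM with siPIEZO1. It was called with 8 of the 16 libraries left out in turn, and missed the threshold without both libraries that stood apart (0.68, adjusted p = 0.083). Of the 23 tested genes of calcium stores, pumps and entry none was called, and the list's median was 0.08.

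In the list of TGF-beta and BMP feedback genes, 22 were tested and NOG and SKIL were called. SKIL, a repressor of SMAD proteins, held 107 to 112 CPM in siNTC vehicle, 58.4 to 87.4 CPM in siNTC Yoda1, 83.2 to 90.9 CPM in siPIEZO1 vehicle and 93.5 to 109 CPM in siPIEZO1 Yoda1 (0.70 ± 0.14, adjusted p = 0.017). Neither pair overlapped. The estimate was -0.52 (adjusted p = 0.0027) with siNTC and 0.18 (adjusted p = 0.50) with siPIEZO1. STARD4, a cholesterol transfer protein (0.83 ± 0.19, adjusted p = 0.030), was the 1 call among 24 sterol and fatty acid genes. None was called among 31 cartilage matrix genes (median -0.06), 24 matrix-degrading enzymes and inhibitors (-0.12), 25 growth factor ligands (0.12), 22 YAP-TAZ genes (0.10), 26 stress and unfolded protein genes (-0.01) or 12 RNA interference genes (0.02). By contrast, the siRNA difference in vehicle was lower for 11 of the 31 cartilage matrix genes (2.53% of all genes) and for 7 of 11 fibroblast markers, and higher for 12 of the 24 sterol genes (2.54% of all genes).

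The NT libraries gave another control for the siRNA arm. Taken as (siPIEZO1 Yoda1 - siPIEZO1 vehicle) - (NT Yoda1 - NT vehicle), the interaction called 0 genes by edgeR, with 637 genes at an unadjusted p under 0.05, and 164 of the 172 genes had the same sign with a median of 0.245 times the size. This alternative shares the siPIEZO1 libraries with the main one, so the signs are not independent. The difference between siNTC and NT in the Yoda1 effect also called 0 genes, with 2123 at an unadjusted p under 0.05, while DESeq2 called 161 and edgeR without a filter on low counts 9. Its count ran from 0 to 73 with each library left out, the highest without replicate 4 of NT vehicle. The medians of the 153 genes in these arms were -0.58 with siNTC and 0.02 in NT.

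At 9 h, in 16 other libraries with the same 4 groups, 5 of 18611 genes (0.0269%) were called in the interaction, 1 higher (0.00537%) and 4 lower (0.0215%), and 1800 had an unadjusted p under 0.05. None has a gene symbol here, none of the 172 genes was among them, and they are named because they are so few. ENSSSCG00000041596 was higher (1.70 ± 0.30), and ENSSSCG00000005432 (-1.60 ± 0.30), ENSSSCG00000006050 (-2.13 ± 0.40), ENSSSCG00000034861 (-2.70 ± 0.51) and ENSSSCG00000050767 (-2.18 ± 0.40) were lower, each with an adjusted p of 0.021 and at a mean of 1.99 to 4.01 CPM. Of the 153 genes, all tested at 9 h, 150 were positive at 9 h against 49.7% of all genes, with a median of 0.39 against -0.00. Of the pattern of the 153 genes at 3 h, the fall in siNTC was absent at 9 h and the siPIEZO1 difference was present. Their mean log2(CPM + 1) was 5.68 to 5.93 in siNTC vehicle and 5.70 to 5.89 in siNTC Yoda1, which overlapped fully. It was 5.09 to 5.62 in siPIEZO1 vehicle, where replicate 4 was lowest and replicates 1, 2 and 3 held 5.62, 5.41 and 5.59. It was 5.67 to 5.88 in siPIEZO1 Yoda1, and the siPIEZO1 groups narrowly did not overlap. The siPIEZO1 groups did not overlap at 3 h either (5.38 to 5.58 in vehicle and 5.65 to 5.78 in Yoda1). The long-to-short measure at 9 h was -1.07 to -0.903 in siPIEZO1 vehicle, lowest in replicate 4. This range overlapped the -0.972 to -0.661 of the other 3 groups, and the part of the measure in the 9 h values was not tested. The 19 lower genes were negative for 13, with a median of -0.15.

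AEBP2 at 9 h held 53, 43.1, 62.1 and 52.8 CPM in siNTC vehicle, 49.5, 49.5, 54.9 and 52.3 CPM in siNTC Yoda1, 38.7, 27.6, 34.3 and 16.3 CPM in siPIEZO1 vehicle and 50.7, 59.2, 53.9 and 59.2 CPM in siPIEZO1 Yoda1. Only siPIEZO1 vehicle stood below the others (interaction 0.96 ± 0.28, adjusted p = 0.17). PTGS2 at 9 h held 54.6 to 75.7 CPM in siNTC vehicle, 61.1 to 65.9 CPM in siNTC Yoda1, 42.9 to 69.6 CPM in siPIEZO1 vehicle and 71.5 to 86.8 CPM in siPIEZO1 Yoda1. The siPIEZO1 groups did not overlap and the siNTC groups did, with an interaction of 0.60 ± 0.25 that was not called (adjusted p = 0.41). The test of 9 h against 3 h found a difference in the interaction for 1 of 20202 genes (0.00495%), the non-coding ENSSSCG00000041596 at a mean of 3.22 CPM at 9 h, with a difference of 2.86 (adjusted p = 0.0028).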

How the data were processed

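RNA was sequenced from 120 libraries. The model used all 36 of the PIEZO1 experiment at 3 h, 16 of which form the interaction, and a like model the 36 at 9 h. Per the labels' protocols, the input was 10 ng of RNA and a SMARTer Ultra Low kit. The authors deposited whole-number gene counts without normalisation. Per the submitters' processing notes, Trim Galore, STAR, HTSeq and Sscrofa11.1 were used. Neither versions nor a strand option is given in the sources used here, so overlapping or antisense genes may share reads. After removal of 481 repeated lines from 32388, 31907 gene identifiers were left. Symbols were those of the deposited table (16681), else of a gene name list (822) or RefSeq (762), and positions are RefSeq's. Groups and replicate numbers come from the titles.

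Counts were tested with edgeR 4.0.16 in R 4.3.3 (TMM scaling, filterByExpr with a minimum count of 10, quasi-likelihood fit with 1 coefficient for each group). Adjustment was Benjamini-Hochberg per contrast over 9 contrasts, and a gene was called under 0.05. The SE is the log2 fold change divided by the square root of F, and the 95% interval is the estimate plus or minus the normal quantile times the SE. CPM use TMM-scaled totals. The long-to-short measure is the mean log2(CPM + 1) of the 2031 protein-coding genes of longest span minus that of as many of shortest span, among genes averaging at least 5 CPM. Replicates differed by more than sampling noise (chi-square per degree of freedom at least 12.7 over 24 pairs). The fit was tested on simulated counts. Alternatives included DESeq2 1.42.0, limma 3.58.1, other scaling and filters, a replicate block, NT as control, and each library left out.

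Genes were named by rule, with exceptions marked and a few items not reported here: the 12 called genes of largest estimate in each direction, the 20 and 10 of largest rise and fall in NT, all averaging at least 1 CPM, PIEZO1, PIEZO2 and TRPV4, and from each of 28 lists the called members and up to 4 of smallest p. List members called in another contrast are named to account for their counts. The members and lists were chosen with earlier results of these data known.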

Additional observations from a re-analysis of the deposited data

Results flagged for a closer look

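Values that lie far from the other 3 libraries of their group are listed here. Over 53 genes and 4 groups, 14 of 212 gene groups (6.6%) had such a value in CPM. Chance gives about 1 in 20 for independent, normally distributed values. The 212 share the same 16 libraries, and genes called in those libraries are among the 53, so the rates are not compared. Of the 14 values, 5 were in replicate 2 of siNTC Yoda1.

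Replicate 2 of siNTC Yoda1 stood apart in the difference between long and short genes (-1.26). The same library had the value farthest from its group for ZNF367 (14.9 CPM), PPP3CA (181 CPM), SPRED1 (16.3 CPM) and STARD4 (43.3 CPM), all low, and for INHBA (124 CPM), which was high.

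Replicate 1 of siPIEZO1 vehicle had the lowest mean correlation with its own group (0.979). It was low for PTGS2 (73.1 CPM) and high for ISG15 (2149 CPM). In siPIEZO1 Yoda1, replicate 1 was low for PTGS2 (236 CPM) and TSC22D1 (1284 CPM), replicate 2 high for RENBP (13.6 CPM) and replicate 4 high for SKIL (109 CPM).

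In siNTC vehicle, replicate 1 had a mitochondrial share of 0.839%, was high for XPOT (27 CPM) and low for SLC35E4 (19.8 CPM). In siNTC Yoda1, replicate 4 was low for EGR1 (68.8 CPM).

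The interaction differed between 9 h and 3 h by the test of that difference for ENSSSCG00000041596 (2.86, adjusted p = 0.0028 by edgeR), from -1.16 at 3 h to 1.70 at 9 h.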

How the results depend on the processing

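The number of genes called in the interaction was not stable. The sign was the same for all 172 genes with each of the 16 libraries left out, which their choice in these libraries made likely. The number called is given next. It was 143 with RLE size factors, 149 with no filter on low counts and 195 with robust dispersion, which is within 1.5 times of 172, and 519 with DESeq2 (416 higher and 103 lower, 164 of the 172 among them), 262 with limma voom, 44 at 2-fold or more, 0 with NT libraries as control and 3 when only the 16 libraries were fitted (PTGS2, UBXN2A and CPEB2, with 1973 genes at an unadjusted p under 0.05). Leaving out 1 library gave 37 to 297. Of the named genes, NOG turned to -0.10 and APOLD1 to -0.11 with NT libraries as control, and the cause was not tested.

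Only the libraries of each contrast gave 21 calls for Yoda1 with siNTC, 7 for Yoda1 with siPIEZO1, 244 for the siRNA difference in vehicle, 210 for Yoda1 in NT and 0 for the 9 h interaction (1541 at an unadjusted p under 0.05). DESeq2 gave 1629, 157, 1410, 230 and 111 for the same 5, and 161 for siNTC against NT. No filter gave 9 for siNTC against NT and 16 at 9 h. Without both libraries that stood apart, Yoda1 with siNTC gave 431 and the siRNA difference in vehicle 1880. Leaving out 1 library gave 229 (siNTC Yoda1 replicate 2) to 1223 (siNTC Yoda1 replicate 4) for Yoda1 with siNTC, 14 (siPIEZO1 Yoda1 replicate 4) to 89 (siPIEZO1 vehicle replicate 3) for Yoda1 with siPIEZO1, 590 (siNTC vehicle replicate 1) to 1355 (siPIEZO1 vehicle replicate 1) for the siRNA difference in vehicle, 664 to 1100 in Yoda1 (siNTC Yoda1 replicates 2 and 3), 13 to 394 for Yoda1 in NT (NT vehicle replicates 1 and 4) and 0 to 73 for siNTC against NT. The causes were not tested.

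Replicate numbers did not meet the condition set for pairing, a correlation over 0.1 in every pair, since same-numbered libraries correlated from -0.031 to 0.384 and 11 of 24 pairs passed 0.1. The 6 pairs of number 1 all passed it (0.201 to 0.384). A replicate block gave 183 calls (162 higher and 21 lower, 160 of the 172 among them) at 3 h and 88 at 9 h. Among the named genes, 248 of the values under alternatives lost their call with the same direction, 2 gained one and 1148 kept their side of the threshold. Library totals were at least 42667388 counts, and at that depth genes under 1 CPM are the ones that counting error limits most.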
